A study of Drosophila melanogaster with 16 samples.

Results

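The comparison set 8 arrays of fly midgut carrying the gain-of-function Raf together with a Notch construct against 4 arrays of midgut carrying RafGOF alone. These 12 arrays were chosen by their titles from the 16 of the series. In 4 of the 8 Notch arrays the construct was NotchDN, a dominant negative form of the receptor, and in the other 4 it was NotchIC, the overexpressed intracellular part of Notch. The mean of the NotchDN and NotchIC group means was set against the RafGOF mean, to look for changes in the same direction with opposite Notch constructs. The comparison does not itself require a shared direction. Of 18769 probe sets, 43 passed the test (0.229%), 27 of them higher in the Notch groups (0.144%) and 16 lower (0.0852%).

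Midguts of female Drosophila melanogaster were profiled on Affymetrix Drosophila Genome 2.0 arrays. The groups were RafGOF NotchDN, RafGOF NotchIC, RafGOF and wild type, with 4 arrays each, numbered 1 to 4. RafGOF was carried by all 3 Raf groups, including the one that stood as the comparison. The labels name no driver, no cell type in which the transgenes were expressed, no temperature, and no age of the flies. They give neither the number of animals behind an array nor whether the arrays of a group came from separate crosses, so a p-value here speaks only of array-to-array spread, which may be technical. A second construct added to RafGOF differs from RafGOF alone also in the number of transgenes carried and in genetic background, and this cannot be told apart here from an effect that both Notch constructs share.

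The midgut epithelium is renewed by intestinal stem cells, which express the Notch ligand Delta and the transcription factor escargot. A stem cell gives rise to an enteroblast, which becomes an absorptive enterocyte when its Notch signal is high, or to a daughter that becomes a hormone-producing enteroendocrine cell. Raf is the kinase that passes the signal of the EGF receptor to MEK and ERK, and this pathway drives stem cell division. Reduced Notch signalling keeps progenitors dividing or turns them to the enteroendocrine fate, whereas the intracellular domain, which is the active part of the receptor, pushes them towards enterocytes. In bulk tissue, fewer cells of a type and less RNA per cell cannot be told apart.

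The arrays looked alike in overall quality, with median signals of 5.48 to 5.7 (log2) and correlations within groups of 0.979 to 0.995. The first principal component of the deviations from the group means held 34.0% of their variance and set the arrays numbered 2 of all 4 groups (0.411 to 0.445) apart from the others (-0.224 to -0.035). The defining enterocyte markers nub, mesh, Ssk and Tsp2A averaged between 10.86 and 13.63 in every group. Between NotchDN and RafGOF, arrays sharing a number strayed from their group means alike (correlations of 0.494 to 0.785). NotchIC shared this less, with 0.104 to 0.528 against RafGOF and 0.157 to 0.529 against NotchDN. Its highest values in both cases came from the arrays numbered 2. Results are also given with the array number as a block, which was taken from these correlations and is weakly founded for NotchIC. With that block, 161 probe sets passed (0.858%), 81 higher (0.432%) and 80 lower (0.426%), and all 43 were among them. Without the arrays numbered 2, 14 probe sets were higher and 5 lower.

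Fewer probe sets passed for the shared change than for the difference between the constructs. NotchDN minus NotchIC passed for 1637 probe sets (8.72%), 870 higher with NotchDN (4.64%) and 767 lower (4.09%), with a median SE of 0.129, although the mean of both groups minus RafGOF had the smaller median SE of 0.112. By itself, NotchDN minus RafGOF passed for 204 probe sets (1.09%) and NotchIC minus RafGOF for 440 (2.34%). These last comparisons use the same RafGOF arrays. At least a 2-fold change was reached by 28 of the 43 called probe sets, 18 higher and 10 lower. All 8 Notch arrays lay above all 4 RafGOF arrays for 13 called probe sets (0.0693%) and below them for 12 (0.0639%), where 0.197% of all probe sets were separated in each direction. Separation is read from the same arrays as the test, so it describes the calls and adds no evidence of its own. With the block 21 (0.112%) were called and above, and 20 (0.107%) called and below. At an unadjusted p under 0.05 stood 901 probe sets (4.8%). A mean of both groups can also pass where only 1 construct moved the gene, and NotchDN minus NotchIC itself passed for 18 of the 43.

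**Figure D1:**
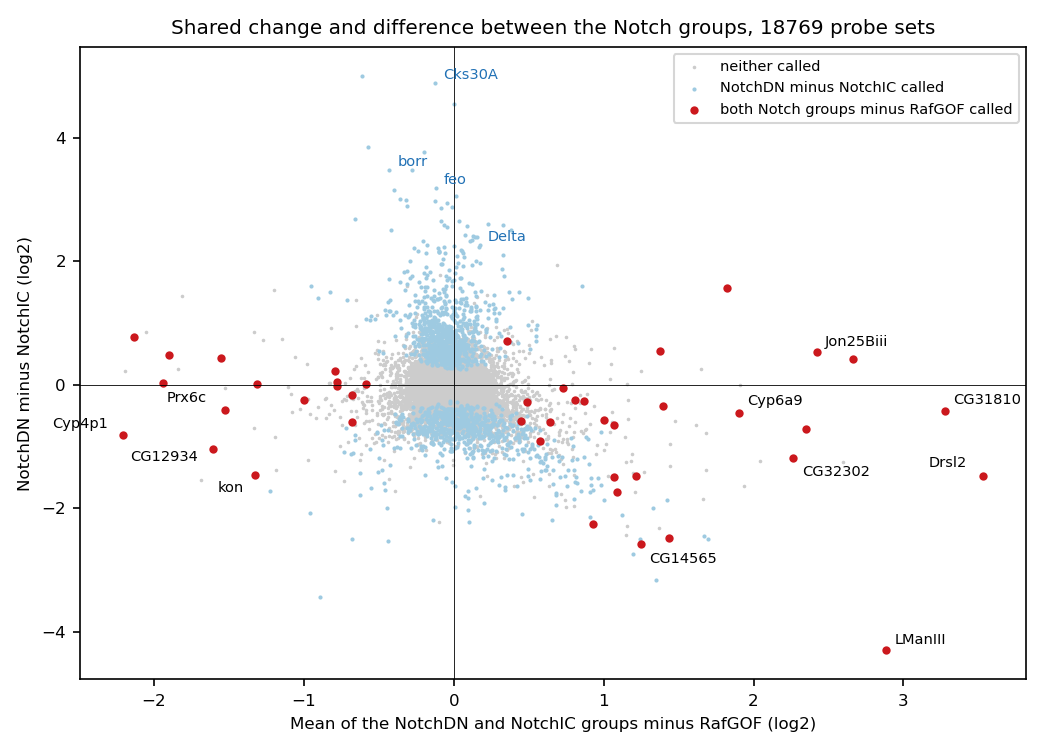
Each of the 18769 points is a probe set, with the mean of the NotchDN and NotchIC groups minus RafGOF (log2) on the horizontal axis and NotchDN minus NotchIC (log2) on the vertical axis. The 43 red points passed for the horizontal quantity, and the blue points passed only for the vertical one. Drsl2 lies farthest right at 3.53, LManIII combines a mean change of 2.88 with a difference between constructs of -4.30, and the mitotic gene Cks30A lies near 0 horizontally at a difference of 4.90.

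The called probe sets stood for 31 genes by 1 symbol each (0.259% of 11981 genes), 20 higher and 11 lower. With the array number as a block 129 genes passed (1.08%), 68 higher (0.568%) and 61 lower (0.509%). Of the 31, 15 were also separated, with the 8 Notch arrays all above the RafGOF arrays for 8 genes and all below for 7. An antimicrobial peptide and a cytochrome P450 stood among the rises, and another cytochrome P450 came first among the falls. Genes known only by a CG number are given without a role.

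Drsl2, which encodes a Drosomycin-like antimicrobial peptide, had the largest rise. Its signal was 8.53, 10.14, 9.87 and 11.40 (log2) on the NotchDN arrays and 11.19, 11.02, 11.91 and 11.71 on the NotchIC arrays, against 7.14, 6.74, 7.21 and 7.67 on the RafGOF arrays. Every Notch array lay above every RafGOF array, and the NotchDN arrays were spread the most. The mean change was 3.53 ± 0.48 (log2, SE), or 11.6-fold, with an adjusted p of 0.00269 and a 95% interval of 2.52 to 4.55. NotchDN alone changed it by 2.79 and NotchIC by 4.27, and the difference between constructs had an adjusted p of 0.129. In wild type the arrays ranged from 7.08 to 9.53, so this gene was also unevenly expressed without any transgene. Its neighbours of the same family, Drsl3, Drsl4 and Drsl5, had changes of -0.29, -0.05 and -0.13 and did not pass.

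CG31810 gave the smallest adjusted p of all probe sets, 1.60e-08. The values were 9.76, 9.51, 9.27 and 9.08 with NotchDN and 10.04, 9.46, 9.54 and 10.24 with NotchIC, against 6.64, 6.13, 6.18 and 6.39 with RafGOF alone. The lowest Notch array exceeded the highest RafGOF array by far more than the spread within any group. The gene rose by 3.28 ± 0.16 (log2), or 9.70-fold, and by 3.07 and 3.49 with NotchDN and NotchIC taken singly. Wild-type arrays held 7.81 to 8.01, between the others. The adjacent genes CG13284 and CG31809 had changes of 0.20 and 0.15 that did not pass.

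Cyp6a9, a cytochrome P450 of the family that oxidises xenobiotics, rose 3.73-fold. It had 7.0, 7.20, 6.72 and 6.96 on the NotchDN arrays and 7.26, 7.54, 7.27 and 7.61 on the NotchIC arrays, against 4.94, 5.25, 5.14 and 5.84 on the RafGOF arrays. Both Notch groups were tight and alike, and the fourth RafGOF array was the nearest to them. The change was 1.90 ± 0.19 (log2) with an adjusted p of 1.05e-04. Wild-type arrays were higher than all of these, at 7.87 to 9.03.

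mthl8, a Methuselah-like G protein-coupled receptor, was measured by a pair of probe sets that both passed. The brighter one had 6.53, 6.41, 6.45 and 6.35 with NotchDN and 6.55, 6.54, 6.40 and 6.43 with NotchIC, against 5.92, 5.41, 5.89 and 5.69 with RafGOF alone. Its change was 0.73 ± 0.09 (adjusted p 0.00161), nearly equal for the NotchDN (0.70) and NotchIC (0.75) arms. The other probe set gave 1.40 ± 0.12 (adjusted p 1.42e-05). Wild-type arrays of the brighter probe set lay at 7.46 to 7.70.

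Naglu, PCB and sowah had higher means with both constructs, by smaller steps. Naglu, the lysosomal enzyme that removes N-acetylglucosamine from heparan sulfate, averaged 5.16 ± 0.27 with NotchDN and 5.43 ± 0.29 with NotchIC, against 4.42 ± 0.07 with RafGOF (SD, n = 4 each). PCB, pyruvate carboxylase, averaged 11.18 ± 0.26 and 11.42 ± 0.37 in the NotchDN and NotchIC groups, against 10.49 ± 0.12 in RafGOF. The ankyrin-repeat gene sowah averaged 7.34 ± 0.06 and 7.62 ± 0.08 in the NotchDN and NotchIC groups, against 7.0 ± 0.24 in RafGOF. Their changes were 0.87 ± 0.14 for Naglu, 0.81 ± 0.16 for PCB and 0.49 ± 0.09 for sowah, with adjusted p of 0.0143, 0.0492 and 0.0316. A dimmer probe set of PCB gave 0.34 and one of sowah 0.34, and neither passed. CG13313 was separated as well, with a rise of 1.07 ± 0.17 (adjusted p 0.0104). By itself, NotchDN minus RafGOF did not pass for PCB (0.685, adjusted p 0.103), sowah (0.351, adjusted p 0.163) or CG13313 (0.745, adjusted p 0.0964). NotchIC minus RafGOF passed for each of them.

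Cyp4p1, another cytochrome P450, had the largest fall among named genes. Its signal was 7.43, 8.14, 8.18 and 8.11 with NotchDN and 9.11, 8.67, 8.91 and 8.40 with NotchIC, against 10.48, 10.54, 10.75 and 10.53 with RafGOF alone. The groups did not overlap, and the NotchDN arrays were the lowest. The gene fell by 2.20 ± 0.15 on the log2 scale (4.61-fold lower, adjusted p 1.06e-06). The fall was larger with NotchDN (-2.61) than with NotchIC (-1.80), and this difference passed (adjusted p 0.00598). Wild-type arrays held 7.66 to 7.99, in the range of the NotchDN arrays.

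The genes beside Cyp4p1 did not fall with it. Cyp4p2 had a change of -0.03. Cyp4p3 had a change of 1.68 with an adjusted p of 0.215, and 0.0489 with the array number as a block. Likewise, of the neighbours of Cyp6a9, Cyp6a23 had a change of 1.04 (adjusted p 0.400, with the block 0.0482), whereas Cyp6a19, Cyp6a20 and Cyp6a21 had 0.10, 0.02 and 0.09, Cyp6a17 had -0.65 and Cyp6a8 had -0.55, none of which passed, with or without the block. These P450 genes are similar in sequence, and cross-hybridisation between them was not tested.

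CG12934 had 7.12, 6.76, 6.33 and 6.98 with NotchDN and 8.17, 7.22, 7.94 and 7.98 with NotchIC, against 9.29, 8.49, 8.54 and 9.35 with RafGOF alone. It fell by 1.61 ± 0.22 (adjusted p 0.00269), again more with NotchDN (-2.12) than with NotchIC (-1.09; adjusted p of the difference 0.0168). Ugt36E1, a UDP-glycosyltransferase that conjugates sugars to small molecules, was dim. Its arrays lay at 4.44 to 4.78 with NotchDN and 4.44 to 4.79 with NotchIC, against 5.26 to 5.53 with RafGOF alone. It fell by 0.78 ± 0.09 (adjusted p 7.41e-04), with arms of -0.79 for NotchDN and -0.77 for NotchIC.

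The other separated falls were Coq9 of coenzyme Q synthesis, Tektin-C, SCAP and sel. Coq9 averaged 8.31 ± 0.30 with NotchDN and 8.56 ± 0.30 with NotchIC, against 9.44 ± 0.27 with RafGOF, and fell by 1.0 ± 0.16 (adjusted p 0.00967). Tektin-C, a microtubule protein of cilia and flagella, fell by 0.78 ± 0.14 (adjusted p 0.0207). SCAP, which escorts the lipid regulator SREBP out of the endoplasmic reticulum, fell by 0.68 ± 0.12 (adjusted p 0.0217), and its RafGOF and wild-type means were both 8.56. The saposin-like endoplasmic reticulum protein sel fell by 0.58 ± 0.11 (adjusted p 0.0321). The lipid droplet protein sturkopf fell by 0.68 ± 0.08 (adjusted p 9.85e-04), more with NotchDN (-0.98) than with NotchIC (-0.38; adjusted p of the difference 7.62e-04), and its NotchIC array 1 reached into the RafGOF range.

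**Figure D2:**
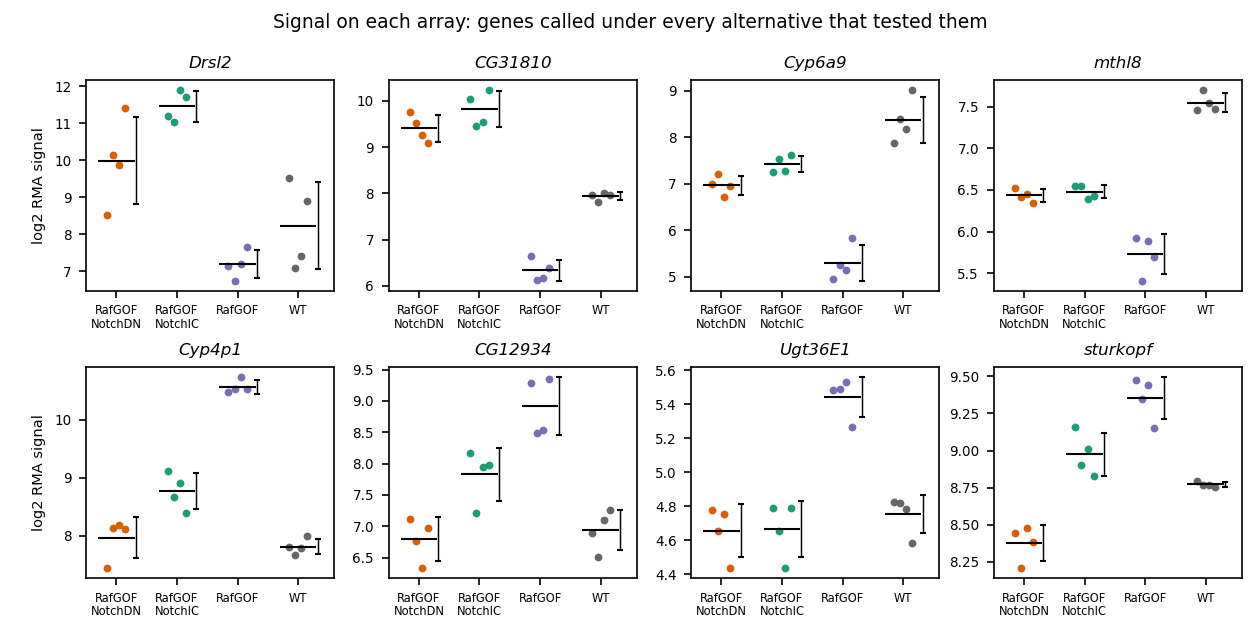
Each point is the log2 RMA signal of 1 array, with the groups in the order RafGOF NotchDN, RafGOF NotchIC, RafGOF and wild type. Horizontal lines are means and vertical bars are SDs (n = 4). The 8 genes passed under every alternative that tested them. In Drsl2, CG31810, Cyp6a9 and mthl8 the RafGOF arrays lie lowest of the Raf groups, and in Cyp4p1, CG12934 and Ugt36E1 they lie highest without overlap.

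Without the arrays numbered 2, 12 of the 31 genes still passed. Among the separated ones these were Drsl2, CG31810, Cyp6a9, mthl8, Naglu, PCB, Cyp4p1, CG12934 and Ugt36E1. LManIII, CG11068 and sturkopf were the others. Sowah, CG13313, Coq9, Tektin-C, SCAP and sel lost the call there. Leaving out RafGOF array 2 alone ended the call of 21 of the 31 genes, and leaving out RafGOF array 3 that of 20. PCB lost its call in 10 of the 12 omissions of a single array, and LManIII when any single RafGOF array was left out. Without the wild-type arrays, 17 of the 31 genes lost the call, PCB and LManIII among them.

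Another 5 genes passed with both arms in the same direction and no called difference between the constructs, but with arrays that overlapped. Jon25Biii, a Jonah serine protease secreted for digestion, had 14.08, 13.07, 13.03 and 13.31 with NotchDN and 13.25, 13.66, 11.57 and 12.88 with NotchIC, against 12.24, 10.63, 10.76 and 9.11 with RafGOF alone. NotchIC array 3 lay below RafGOF array 1, and the RafGOF arrays were the most spread. The gene rose by 2.42 ± 0.45 (adjusted p 0.0329), with wild type higher still at 14.28 to 14.46. CG32302 rose by 2.27 ± 0.42 (adjusted p 0.0329), with NotchDN array 1 at 8.68 inside the RafGOF range of 8.22 to 9.44. CG13658 rose by 1.0 ± 0.18 (adjusted p 0.0318). In CG32302 and CG13658 NotchDN minus RafGOF did not pass by itself (adjusted p 0.158 and 0.165).

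Prx6c, a peroxiredoxin that reduces peroxides, had 6.58, 7.22, 7.37 and 7.30 with NotchDN and 7.62, 6.89, 7.27 and 8.31 with NotchIC, against 8.58, 9.11, 9.52 and 8.19 with RafGOF alone. NotchIC array 4 alone overlapped RafGOF array 4. The gene fell by 1.53 ± 0.25 on the log2 scale (adjusted p 0.0162). CG3635 fell by 1.55 ± 0.26 (adjusted p 0.0162), where NotchDN array 1 at 6.07 overlapped RafGOF array 4 at 5.92.

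The Notch groups were also tested against wild type, a comparison that uses the same Notch arrays and none of RafGOF, and which passed for 20% of all probe sets. Among the separated rises, the mean of the Notch groups was above wild type by 2.49 for Drsl2 (adjusted p 0.0013) by 1.68 for CG31810 (adjusted p 2.35e-06) and by 0.29 for sowah (adjusted p 0.0287). It was below wild type for Cyp6a9 (-1.17), mthl8 (-1.09), CG13313 (-1.01) and Naglu (-0.96), all of which passed, and at -0.35 for PCB, which did not. Among the separated falls, it was above wild type for Tektin-C (0.75), Coq9 (0.62) and Cyp4p1 (0.56) and below it for sel (-1.06) and SCAP (-0.68), all of which passed. For CG12934 (0.37) and Ugt36E1 (-0.09) it did not pass.

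**Figure D3:**
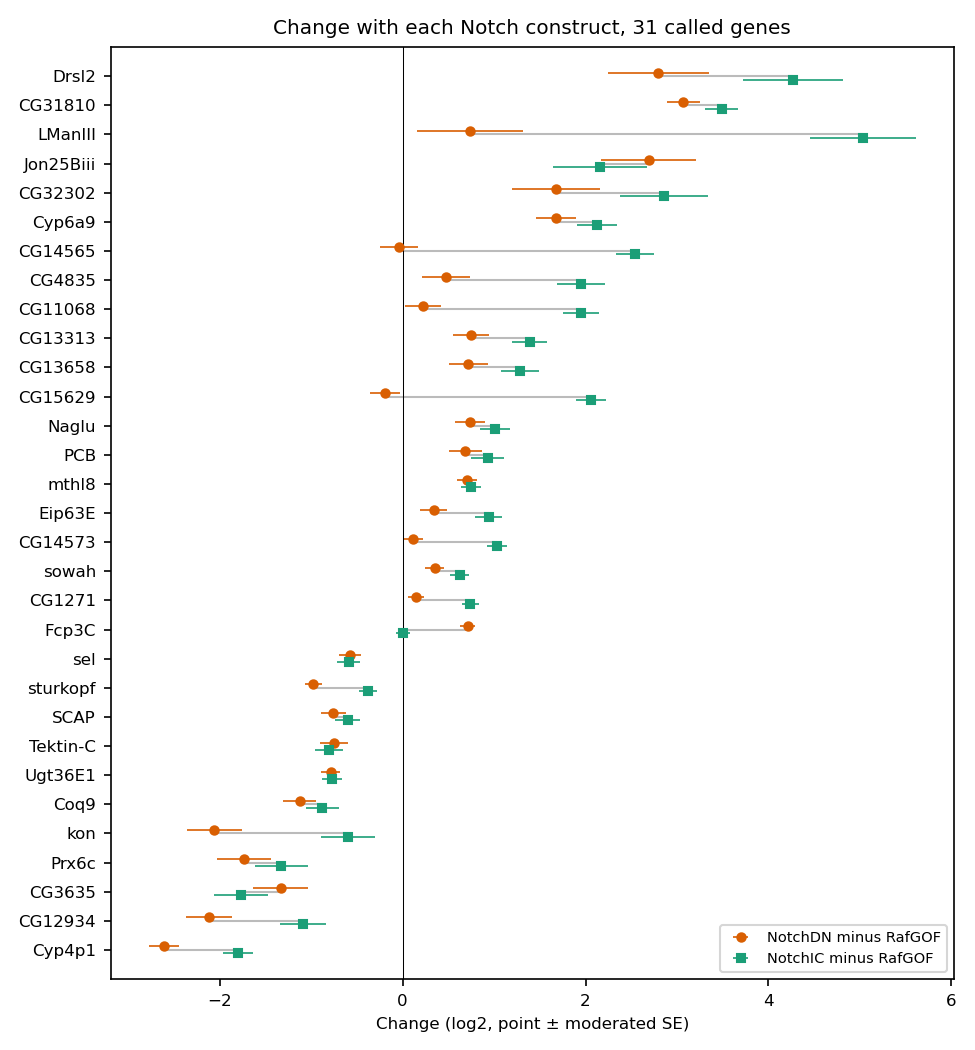
For each of the 31 called genes, the circle is NotchDN minus RafGOF and the square NotchIC minus RafGOF (log2, with the moderated SE as the bar). Both arms use the same 4 RafGOF arrays. In mthl8, sel, Tektin-C and Ugt36E1 the symbols lie close together, whereas in LManIII, CG14565, CG15629 and Fcp3C one of them lies close to 0 or far nearer to it.

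The difference between the constructs passed for 13 of the 31 genes, and for 11.6% of all 11981 genes. In these genes the mean over both groups joins unequal changes. LManIII, an alpha-mannosidase of the lysosomal type, had the widest difference. It had 5.32, 5.79, 4.88 and 6.63 with NotchDN and 8.83, 12.30, 9.20 and 9.48 with NotchIC, against 4.94, 4.86, 5.28 and 4.61 with RafGOF alone. The NotchIC arrays were all high, with array 2 the highest, and the NotchDN arrays overlapped RafGOF. NotchIC raised it by 5.03 ± 0.58 (adjusted p 2.72e-04), and the NotchDN arm was 0.73 ± 0.58 (adjusted p 0.904). Wild-type arrays held 10.55 to 11.65.

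CG14565 had 4.26, 4.03, 3.99 and 4.10 with NotchDN and 6.14, 6.36, 6.77 and 7.44 with NotchIC, against 4.37, 4.16, 4.0 and 4.02 with RafGOF alone. The NotchDN, RafGOF and wild-type arrays all lay at the dim end, and NotchIC alone was above them, with arms of -0.04 and 2.54. CG15629 had arms of -0.20 with NotchDN and 2.06 with NotchIC. CG11068 had arms of 0.22 and 1.95, and CG4835 of 0.48 and 1.95, NotchDN before NotchIC. The differences of these 4 genes, NotchDN minus NotchIC, were -2.58, -2.25, -1.73 and -1.47, with adjusted p between 6.52e-07 and 0.00204.

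Of the remaining genes with differing arms, CG14573, CG1271 and Eip63E, an ecdysone-induced cyclin-dependent kinase, changed more with NotchIC (1.03, 0.74 and 0.94) than with NotchDN (0.12, 0.15 and 0.34). Fcp3C, known as a follicle cell protein, went the other way. Its arrays held 6.98, 6.96, 6.83 and 6.96 with NotchDN and 6.38, 6.13, 6.16 and 6.24 with NotchIC, against 6.28, 6.12, 6.17 and 6.32 with RafGOF alone. Only the NotchDN arrays were high. The transmembrane proteoglycan kon fell with NotchDN by 2.06 (adjusted p 0.00263), while its NotchIC arm was -0.60 (adjusted p 0.479). With its mean change of -1.33 and an adjusted p of 0.0497, kon was the last gene inside the threshold. Just inside it as well stood Eip63E (0.0497), PCB (0.0492) and Fcp3C (0.0477), and just outside CG4839, CG34253, CG15254, CG3036 and CG7408 (each 0.0549, with changes of 0.49, 0.79, 1.91, 0.66 and 0.98).

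**Figure D4:**
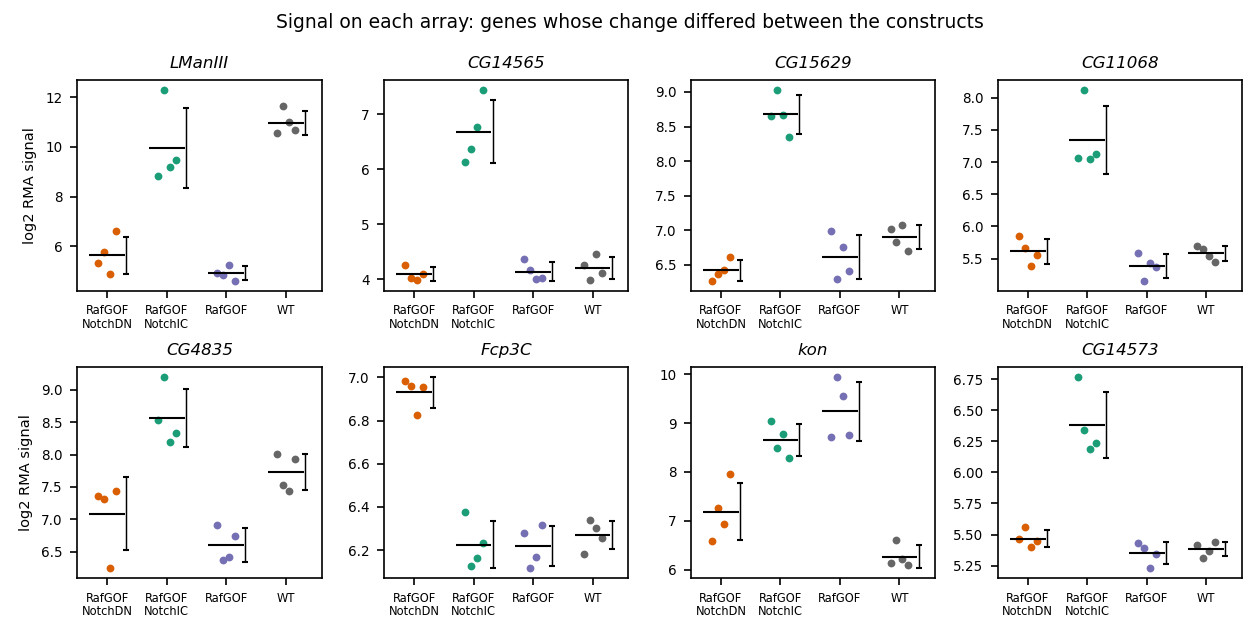
Each point is the log2 RMA signal of 1 array, with the groups in the order RafGOF NotchDN, RafGOF NotchIC, RafGOF and wild type. Lines are means and bars SDs (n = 4). In LManIII, CG14565, CG15629, CG11068, CG4835 and CG14573 the NotchIC arrays stand above the others of the Raf groups, in Fcp3C the NotchDN arrays stand above all, and in kon the NotchDN arrays stand below the other Raf groups.

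Lists of the pathways that the constructs act on were looked up in the mean comparison. Of 10 progenitor genes, 16 Notch targets, 15 EGFR pathway genes, 47 cell cycle genes and 30 DNA replication genes measured, 0 passed by limma in either direction, against 0.259% of all genes. At that share, 0 in lists of this size is not a result about the pathways. The counts at an unadjusted p under 0.05 were 1, 0, 0, 4 and 0, and 702 over all 11981 genes (5.86%). With the array number as a block, 1 cell cycle gene was lower and the others remained at 0. That gene was fzr, an activator of the anaphase-promoting complex, with a mean change of -0.50 (adjusted p 0.472, with the block 0.0398).

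In several of these lists the constructs pulled apart around RafGOF. The stem cell factor esg had 10.77, 12.02, 11.34 and 10.84 with NotchDN and 8.74, 9.66, 8.73 and 9.27 with NotchIC, against 9.83, 11.16, 10.29 and 10.13 with RafGOF alone. The NotchDN arrays were the higher and the NotchIC arrays the lower, and the mean change was -0.19 with an interval of -0.76 to 0.39. The Notch ligand Delta had a mean change of 0.17 (interval -0.42 to 0.77), with arms of 1.31 for NotchDN and -0.96 for NotchIC. Cks30A, a partner of the mitotic kinase, had a mean change of -0.12 (interval -0.51 to 0.26), with arms of 2.32 and -2.57.

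NotchDN minus NotchIC, which does not use the RafGOF arrays, passed for 37 cell cycle genes upward and 1 downward of 47. It passed upward for 23 of 30 DNA replication genes and for 17 of 25 ribosome biogenesis genes, with 0 downward in both. The background is 730 upward and 656 downward among all 11981 genes. The median mean change of the cell cycle list was -0.12 and that of all genes -0.01, and 21.3% of the cell cycle genes lay above 0, against 45.7% of all genes. E(spl)mbeta-HLH, a direct Notch target, had arms of -0.50 with NotchDN and 0.46 with NotchIC and a mean change of -0.02. Of the 16 Notch targets, 0 passed in either arm. The EGFR target aos had arms of 1.09 and -0.31 and a mean change of 0.39 (interval -0.19 to 0.97). In the NotchDN arm 0 of the 15 EGFR pathway genes passed. The proneural gene sc, an enteroendocrine fate regulator, had arms of 1.35 and -1.04 and a mean change of 0.15.

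Carbohydrate digestion, antimicrobial peptides and serine proteases gave 1 called gene a list. Over all genes 0.259% passed and 45.7% had a mean change above 0. Lysozymes (3 measured), lipases and lipid uptake (19), and chitinases and peritrophic matrix (42) gave 0, with 33.3%, 42.1% and 64.3% above 0. The PGRP and IMD list (15) and the Toll, Sting and stress list (24) also gave 0, with 66.7% and 41.7% above 0. Of 18 carbohydrate digestion genes, LManIII alone was called, and 88.9% had a mean change above 0, with a median of 0.46. The median was 0.16 with NotchDN and 0.92 with NotchIC. With the array number as a block 2 passed, the other being the glucosidase tobi at 2.04 (adjusted p 0.182, with the block 0.0258). Of 17 antimicrobial peptides, Drsl2 alone was called, and 82.4% lay above 0. Their median change was 0.06 with NotchDN and 0.84 with NotchIC. BomS2, a short secreted peptide of the Toll response, had a change of 1.94 (adjusted p 0.953), and Metchnikowin, Mtk, had arms of 0.01 with NotchDN and 2.30 with NotchIC. Of 31 serine proteases Jon25Biii alone was called, and with the block Ser6 was lower as well, at -0.31 (adjusted p 0.672, with the block 0.0489). Jon25Bii and Jon25Bi, the neighbours of Jon25Biii, had 0.91 and 0.61 without passing.

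Of 83 cytochrome P450 genes, Cyp6a9 was higher and Cyp4p1 lower, and with the block 4 were higher and 2 lower, against 68 and 61 of all 11981 genes. Of 35 UDP-glycosyltransferases 1 was lower, Ugt36E1, and with the block 1 more was higher, Ugt36A1 at 0.49. Of 20 redox enzymes 1 was lower, Prx6c, and of 24 matrix and integrin genes 1 was lower, kon. The 34 glutathione S-transferases, 72 oxidative phosphorylation genes, 31 V-ATPase subunits and 26 proteasome genes had 0 called by limma in either direction, also with the block. Over all genes 0.259% passed, and 1.08% with the block. At an unadjusted p under 0.05 they had 0, 1, 1 and 1. All 26 proteasome genes had a mean change below 0, from -0.27 to -0.05 with a median of -0.13.

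**Figure D5:**
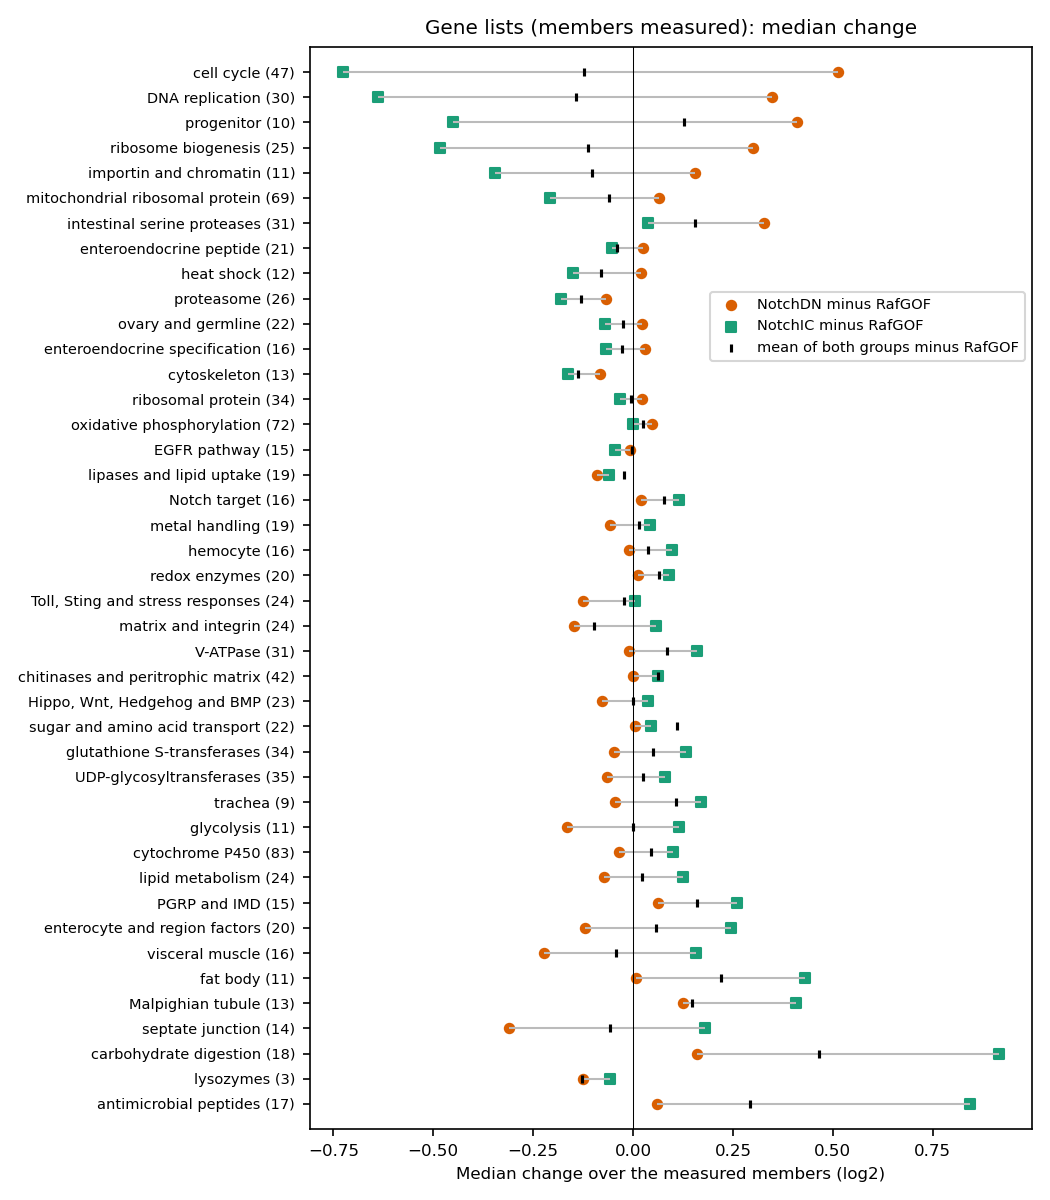
For each list, the circle is the median NotchDN change, the square the median NotchIC change and the tick the median of the mean change, all against RafGOF (log2), over the number of measured members in brackets. The cell cycle list lies at 0.51 with NotchDN and -0.73 with NotchIC, and the carbohydrate digestion list at 0.16 and 0.92. Both arms use the same RafGOF arrays, and the medians carry no test.

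Of 21 hormone genes of enteroendocrine cells, 0 were called by limma, and 5 had an unadjusted p under 0.05, against 5.86% of all genes. The peptide hormone Dh31 had 7.30, 6.49, 7.28 and 7.44 with NotchDN and 6.62, 5.14, 6.14 and 6.93 with NotchIC, against 7.55, 6.69, 7.69 and 8.0 with RafGOF alone. Each Notch array lay below the RafGOF array of the same number, with NotchIC below NotchDN each time. Arrays of different numbers overlapped. The Dh31 change of -0.82 ± 0.33 had an adjusted p of 0.854, and 0.00844 with the array number as a block. That block is weakly founded for NotchIC. The fate regulator pros had a change of -0.07 and the hormone gene AstC one of -0.44, neither of them called.

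Markers of tissues next to the gut were also compared. All 13 Malpighian tubule genes measured had a mean change above 0, against 45.7% of all genes, with a median of 0.15. Their summed level was 12.49 to 13.01 with NotchDN and 12.98 to 14.01 with NotchIC, against 12.58 to 12.83 with RafGOF alone and 13.25 to 14.02 in wild type (log2). By limma 0 were called, and 5 had an unadjusted p under 0.05, where 702 of all 11981 genes did. With the block 1 was called, salt at 1.08 (block adjusted p 0.00144). For 11 fat body genes the summed level was 11.31 to 12.52 with NotchDN and 12 to 12.87 with NotchIC, against 11.38 to 11.89 with RafGOF. For 16 muscle genes it was 13.53 to 13.81 with NotchDN and 13.93 to 14.20 with NotchIC, against 13.77 to 14.27 with RafGOF. The part of such tissue in the rises was not tested.

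Of the 43 called probe sets, 9 had no symbol in the probe table and 2 had several. One with no symbol was 2.66 higher (adjusted p 4.04e-05) and another had a change of -2.13 (adjusted p 1.22e-06), and the 8 Notch arrays were separated from RafGOF in both. One with several symbols was 2.35 higher (adjusted p 1.96e-06). No gene is given for these.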

How the data were processed

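The deposited values are log2 signals that the authors made with RMA, per the submitters' processing notes, from biotin-labelled total RNA (3' in vitro transcription kit, per the labels). Which RMA program was run is not given in the sources used here. No further normalisation was applied. Of 18952 probe sets, 183 controls were set aside. Gene symbols came from the platform's probe table, in which 13646 tested probe sets had 1 symbol, 402 several and 4721 none. Of those with 1 symbol, 13543 were found in RefSeq's gene table by Entrez ID, and 0 symbols changed. Each of 11981 genes was represented by its brightest probe set, by mean signal. Raf and Notch themselves were not analysed here, so neither construct was checked by its own transcript.

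A linear model with a mean for each group was fitted to the 16 arrays (limma 3.58.1, R 4.3.3), which left 12 residual degrees of freedom. Variances were moderated by empirical Bayes, and p-values were adjusted by Benjamini-Hochberg over the 18769 probe sets. Calls are two-sided at an adjusted p under 0.05, and each SE is the moderated one. The fit was tested on simulated data. A gene was separated where all 8 Notch arrays lay on one side of all 4 RafGOF arrays. The members, the 42 gene lists (1033 of 1256 entries measured) and the alternatives were chosen with earlier results of these data known. The rule for named genes took up to 12 separated rises and 12 falls, ranked by the smaller arm, which gave 6 and 6 and passed over 2 and 1 with only a CG number. It took all called members of a list where 5 or fewer passed, and the 5 genes with the largest NotchDN minus NotchIC among those whose arms differed. It names 20 of the 31 called genes, and the other 11, with the uncalled genes outside the pathway lists, were named after their values were seen. Correlations of same-numbered arrays' deviations exceeded 0.1 in every pair, which is where the pairing comes from. The number of arrays limits the precision. Alternatives were the array number as a block, the 12 Raf arrays only, quantile normalisation, median centring, a minimum mean signal of 5, trend and robust moderation, array weights, and leaving out arrays.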

Additional observations from a re-analysis of the deposited data

Results flagged for a closer look

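In 6 of 124 groups of 4 arrays tested over the 31 called genes, 1 array lay far from the other 3. Chance flags about 1 in 20 groups. CG11068 was at 8.13 on NotchIC array 2, where the nearest was 7.13. CG3635 was at 6.07 on NotchDN array 1, with the nearest at 5.28. CG4835 was at 6.25 on NotchDN array 3, with the nearest at 7.32. Cyp4p1 was at 7.43 on NotchDN array 1, with the nearest at 8.11. Ugt36E1 was at 5.26 on RafGOF array 4, with the nearest at 5.48, and sowah was at 7.74 on NotchIC array 1, with the nearest at 7.59.

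NotchDN minus NotchIC itself passed for 13 of the 31 genes. It was below 0 for LManIII (-4.30), CG14565 (-2.58), CG15629 (-2.25), CG11068 (-1.73), CG4835 (-1.47), kon (-1.46), CG12934 (-1.03), CG14573 (-0.92), Cyp4p1 (-0.81), Eip63E (-0.60), sturkopf (-0.60) and CG1271 (-0.59). It was above 0 for Fcp3C alone (0.71).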

How the results depend on the processing

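The direction of all 31 called genes held in each setting in which they were tested. The replicate block, the 12 Raf arrays only, the minimum mean signal and the trend moderation leave the mean change itself unaltered. In those settings the direction could not change, nor could it for separated genes when arrays were left out. Single genes were not looked up with the block and without the arrays numbered 2. Of the 31, 8 kept their call in all settings that tested them. These were Drsl2, CG31810, Cyp6a9, mthl8, Cyp4p1, CG12934, sturkopf and Ugt36E1, the last removed by the minimum mean signal. The probe sets higher and lower, 27 and 16, became 81 and 80 with the replicate block, 16 and 9 with the 12 Raf arrays only, 139 and 147 with array weights, and 14 and 5 without the arrays numbered 2. The separated and called probe sets, higher and lower, 13 and 12, became 21 and 20 with the replicate block and 25 and 25 with array weights. The lower ones became 7 with the 12 Raf arrays, 4 without the arrays numbered 2, and 7 with the block and without those arrays, an alternative chosen after seeing the data. Quantile normalisation, median centring, the minimum mean signal and trend moderation left all 4 counts within 1.5 times. Requiring NotchDN and NotchIC each to pass against RafGOF in the same direction gave 11 higher and 15 lower. Leaving out 1 array at a time gave 11 to 44 probe sets higher, 6 to 24 lower, 8 to 24 separated and called higher, and 5 to 19 separated and called lower. Without RafGOF array 2 the counts were 11 higher and 6 lower, and they were 13 and 7 without RafGOF array 3, 35 and 24 without RafGOF array 4, and 44 and 15 without NotchIC array 4. The block ended no call of the 31 genes. With it Dh31 passed, and with array weights the progenitor gene spdo did. The cause of these moves was not tested.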

Other observations

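Genes of protein folding and export in the endoplasmic reticulum were looked at after sel and its like were seen, from a list of 49 entries written then, so the values are a description. Of 40 measured, 37 had a mean change below 0, with a median of -0.25 over both Notch groups and of -0.33 with NotchDN and -0.21 with NotchIC, against -0.01 for all genes, of which 45.7% lay above 0. By limma 1 was called, sel, and 10 were lower with the array number as a block, as were 61 of all 11981 genes. The chaperone Hsc70-3, the fly BiP, had 11.38, 12.28, 11.90 and 11.85 with NotchDN and 11.71, 11.98, 11.85 and 11.49 with NotchIC, against 12.14, 12.64, 12.31 and 12.21 with RafGOF alone. Its change of -0.52 had an adjusted p of 0.330, and 0.0148 with the block. The co-chaperone P58IPK had a change of -0.72, the disulfide isomerase CaBP1 one of -0.69 and the chaperone Gp93 one of -0.67. The median of RafGOF minus wild type over the same 40 genes was 0.07.

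CG14565 and CG14573 were the only pair of called genes within 10 genes of each other in RefSeq's gene order. They lie 5 genes apart, and both were high with NotchIC alone. CG14567, between them, had 5.29, 5.18, 4.96 and 5.21 with NotchDN and 6.61, 6.23, 6.87 and 6.81 with NotchIC, against 5.36, 5.24, 5.2 and 5.80 with RafGOF alone. Its mean change of 0.50 had an adjusted p of 0.216, and 0.0463 with the block. Of 132 measured neighbours within 3 genes of a called gene, 0 were called by limma, 24 had an unadjusted p under 0.05 and 8 were called with the block. Over all 11981 genes these counts were 31, 702 and 129.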
